A study of Homo sapiens
Mus musculus with 8 samples.

Results

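Mitotic EL4-like cells are EL4-like cells selected on their measured transcripts of 8 genes of late G2 phase and mitosis, Ccnb1, Cdc20, Plk1, Cenpf, Cenpe, Hmmr, Ube2c and Aurka. EL4 is an established mouse T cell lymphoma line. A cell barcode was taken as EL4-like when it held at least 10000 unique molecular identifiers (UMIs, 1 for each captured transcript), more than 80% of them on mouse genes and under 10% of the mouse UMIs mitochondrial, and when Lgals1, S100a6 and Perp together made up at least 0.05% of mouse UMIs and at least 5 times the sum of Epcam, Cd24a, Ctss and Ckap4. The mitotic score of a cell was the number of UMIs of the 8 genes per 10000 mouse UMIs. In each library the highest 10% of EL4-like cells by this score were called mitotic and the lowest 50% low. This gave 793 mitotic cells of 7936 EL4-like cells, out of 20684 barcodes with at least 10000 UMIs. The contrast group held 3967 low cells, and 3176 cells lay between the groups.

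The study compared high-throughput single-cell RNA sequencing kits on a mixture of 4 lymphocyte cell lines in equal parts, the human T cell lines Jurkat and TALL104 and the mouse lines EL4 and IVA12, of T and B cell origin. All libraries used here came from the Chromium droplet system, and the labels name no treatment of these established lines. They were made with the 3′ v2 kit (1 library, replicate 2), the 5′ v1 kit (replicates 1 and 2) or the 3′ v3 kit (replicates 1 to 4). The kits count the end of a polyadenylated transcript, the 3′ end with 3′ v2 and 3′ v3 and the 5′ end with 5′ v1. Libraries drawn from 1 cell mixture share their cells: both 5′ v1 libraries came from 1 mixture, 3′ v3 replicates 1 and 3 from another and 3′ v3 replicates 2 and 4 from a further one, so that the 7 libraries represent 4 mixtures and p-values measure the spread between libraries. Total UMIs per library ranged from 24790710 to 251164949.

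A cell commits to mitosis when cyclin B and CDK1 form an active kinase, which the CDC25 phosphatases switch on. Chromosomes then condense, the nuclear envelope breaks down, and microtubules with their motor proteins build a spindle that attaches to the kinetochores. The spindle assembly checkpoint holds the anaphase-promoting complex (APC/C) in check until every kinetochore is attached. APC/C then marks securin and the mitotic cyclins for destruction, separase opens cohesin, and the cell divides at the central spindle. Genes for these steps are transcribed mostly in G2 phase, whereas genes for origin licensing, DNA synthesis and nucleotide supply are transcribed at the G1 to S transition under E2F factors.

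The score was continuous, so the mitotic cells are a range of it and not a separate type. The number of mitotic cells was 42 in the 3′ v2 library, 114 and 64 in the 5′ v1 libraries, and 139, 52, 264 and 118 in 3′ v3 replicates 1 to 4. The lowest score of a mitotic cell and the highest score of a cell outside the group were 10.57 and 10.50 in the 3′ v2 library, 13.05 and 13.02 and then 11.17 and 11.12 in the 5′ v1 libraries, and between 20.83 and 25.92 inside and between 20.78 and 25.88 outside in the 3′ v3 libraries. The cut thus lay higher in every 3′ v3 library than in the other kits. Low cells reached at most 3.57 to 8.79 by library. Of the 793 mitotic cells, 313 lay within 10% of the cut, and 375 cells outside the group lay within 10% below it. A single cell of 5′ v1 replicate 2 had a score of 69.97, and the next highest cell of any library was the 56.34 maximum of 3′ v3 replicate 1. When every cell was reduced at random to 10000 mouse UMIs and the score taken again, 65.3% to 81.0% of the mitotic cells of a library stayed in the highest 10% and 0 moved into the lowest 50%.

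**Figure D1:**
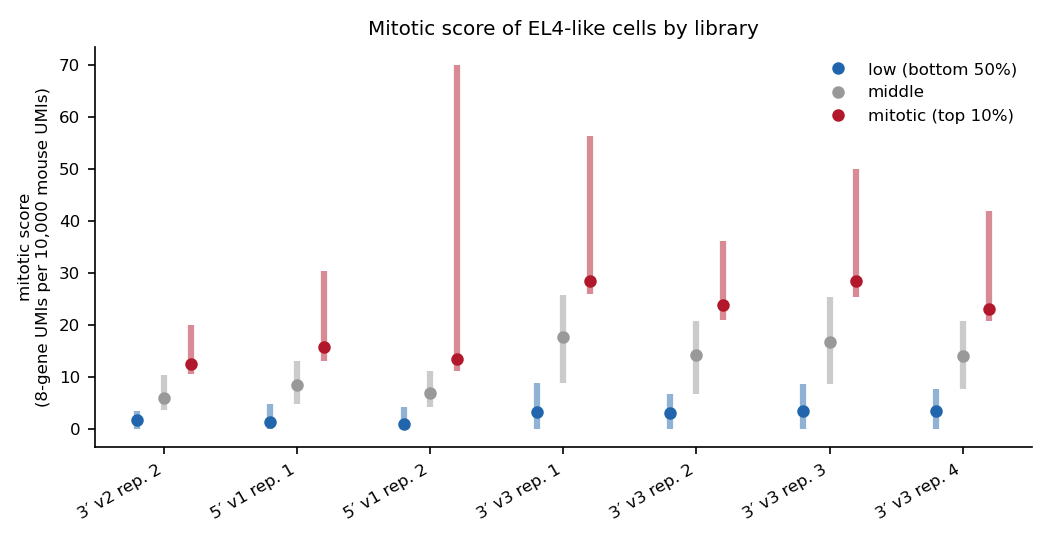
Mitotic score of EL4-like cells in each of the 7 libraries, as UMIs of the 8 score genes per 10000 mouse UMIs on the vertical axis. Bars span the lowest to the highest cell of the low, middle and mitotic groups and points mark the median cell, which in mitotic cells was 12.5 in the 3′ v2 library, 15.8 and 13.5 in 5′ v1 replicates 1 and 2 and 23.2 to 28.5 in the 3′ v3 libraries.

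The 8 score genes chose the cells, so their levels are a description and were not tested. Ube2c, which passes ubiquitin to APC/C substrates, had the highest median over libraries, at 4.16 to 10.8 UMIs per 10000 mouse UMIs over the mitotic cells of a library, against 0.37 to 0.73 in low cells. By median, Cenpf, a kinetochore protein, followed at 2.12 to 5.35 and Ccnb1, cyclin B1, at 1.88 to 3.74, although Cdc20, at 1.23 to 4.54, was above both in 3′ v3 replicates 1 and 3. Aurka, the spindle pole kinase, had the lowest median and a range of 0.52 to 0.99, and Plk1 was below it in 2 libraries. The score genes were left out of all results that follow. The cells were ranked by genes of G2 phase and mitosis, so higher levels of other genes of that phase describe the cells that the ranking found.

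The mouse line of these cells was checked with genes the rule did not use. Cd3e, Cd3d, Cd3g, Thy1, Lck and Cd2, which mark T cells, were all present in the mitotic cells of each library. The lowest of the 6 was at 9.15 to 32.3 UMIs per 1000000 mouse UMIs (CPM). Other T cell genes were nearly absent. Cd4 had 1 UMI in all mitotic and 8 in all low cells, although the study describes EL4 as CD4+. Cd6 had 11 and 65 UMIs and Satb1 3 and 13. Of 16 B lineage genes listed, the 4 IVA12 genes of the rule left out, 13 were in the gene reference of the files, and 9 of the 13 were lower in mitotic cells. Without Pou2af1, held at 80.2 CPM by mitotic and 71.7 CPM by low EL4-like cells, the summed level of the other 12 was 5.34 to 15.8 CPM in mitotic and 4.76 to 28.03 CPM in low EL4-like cells, against 546 to 798 CPM in mitotic IVA12-like cells. Cd79b, a chain of the B cell receptor, was at 2.27 CPM in mitotic EL4-like cells, against 155 to 332 CPM in mitotic IVA12-like cells. Of the MHC class II genes, H2-Ab1 was at 0 in mitotic and in low EL4-like cells, and H2-Aa at 0.04 and 0.05 CPM. H2-Eb1 was at 3.47 CPM in mitotic and 4.08 CPM in low EL4-like cells.

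Across the 7 libraries, UMIs were summed over the mitotic and over the low cells of each library, and the sums were compared with the library as a block. A sum held 1310882 to 8432837 UMIs for mitotic and 5254818 to 33711657 UMIs for low cells. Of 8609 mouse genes tested, 1410 (16.4%) were higher and 1504 (17.5%) lower in mitotic cells at an adjusted p under 0.05. Most of the differences were small: with a change of at least 1.5-fold as well, 226 genes (2.63%) were higher and 147 (1.71%) lower. The median gene differed by a log2 fold change of -0.00. Scaling by library size alone, in place of the trimmed mean of M-values (TMM), moved the median gene to 0.08 and the calls to 2025 higher and 709 lower, so the balance of small changes depended on the scaling and small changes are given relative to the median gene. Leaving out the block left 124 genes higher and 26 lower.

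Of the tested genes higher in all 7 libraries, Prr11, a gene of late cell cycle expression, rose most. It ranged from 2.62 to 5.64 CPM in low cells with a median of 3.49, and from 15.5 to 40.0 CPM in mitotic cells with a median of 26.2 (log2 fold change 2.92, SE 0.10, adjusted p = 3.1e-16). Nusap1, which bundles spindle microtubules, ranged from 17.6 to 40.7 CPM in low cells with a median of 23.1, and from 97.9 to 341 CPM in mitotic cells with a median of 153 (log2 fold change 2.84, SE 0.10, adjusted p = 3.4e-16). The lowest mitotic library lay above the highest low library for both genes. Genes were tested at an average of at least 5 CPM over the 14 sums. This average was fitted on the log scale by the edgeR software and is not a plain mean of the groups. Prr11, at a mean under 5 CPM in low cells, passed through its mitotic level, as did Pif1, Arhgef39 and Hyls1 below. Depdc1b, with 252 UMIs in all mitotic and 156 in all low cells, was not tested, so the ranking depends in part on this limit. Nusap1 was seen in 64.1% to 93.5% of mitotic cells at 10000 UMIs, against 12.8% to 24.8% of low cells. Human cells of the same libraries, in which a mouse UMI is background and which held a median of 61 to 686 mouse UMIs by library, carried a mouse Nusap1 UMI in at most 5.33% of cells.

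Cdc25c, the phosphatase that activates cyclin B and CDK1, was measured from 3.94 to 7.81 CPM in low cells with a median of 6.10, and from 16.5 to 50.4 CPM in mitotic cells with a median of 32.2 (log2 fold change 2.53, SE 0.11, adjusted p = 4.7e-15). The 3′ v2 library had the smallest rise, a log2 fold change of 1.08 against 2.54 to 2.65 in the other 3 mixtures. Aspm, a protein of the spindle poles, went from 9.02 to 26.2 CPM in low cells with a median of 16.2, and from 45.5 to 136 CPM in mitotic cells with a median of 105 (log2 fold change 2.47, SE 0.06, adjusted p = 1.9e-18), again without overlap of the groups. The other genes of the 12 with the largest rise in all 7 libraries were the helicase Pif1 (2.57), Arhgef39 (2.45) and Arhgap19 (2.34), the kinesin Kif2c, which shortens microtubules (2.20), the centriole protein Hyls1 (2.18), the nuclear import factor Kpna2 (2.12), the spindle assembly factor Tpx2 (2.12) and Prc1, which joins the microtubules of the central spindle (2.08), all as log2 fold changes. The groups of Hyls1 overlapped, since its 3′ v2 library held 2.91 CPM in mitotic cells. These 12 genes were chosen for their rise, so the absence of overlap in the others follows in part from that choice.

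**Figure D2:**
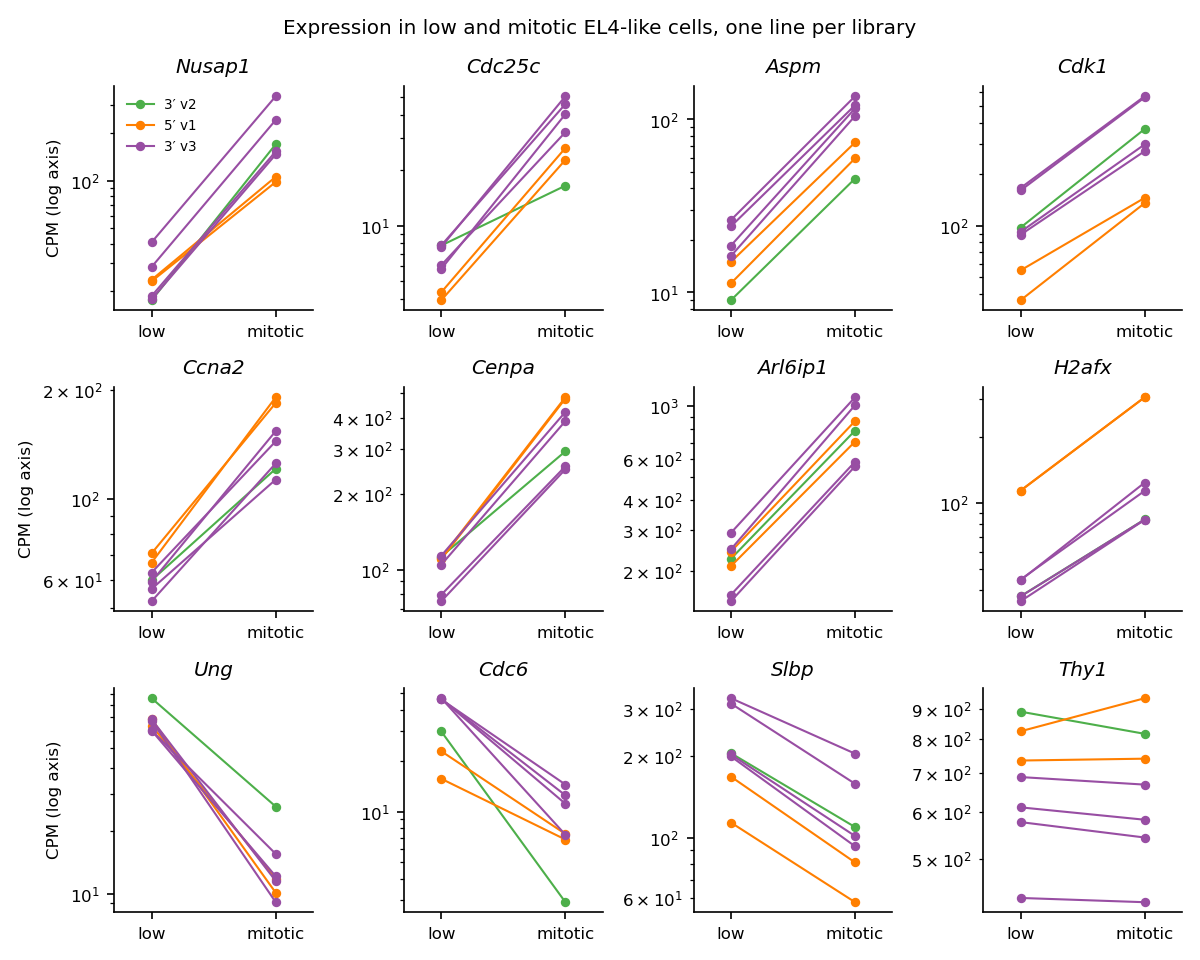
Level of 12 genes in CPM on a log axis, in the low and the mitotic EL4-like cells of each library, with a line for each of the 7 libraries coloured by kit. Nusap1, Cdc25c, Aspm, Cdk1, Ccna2, Cenpa, Arl6ip1 and H2afx rise in every library, Ung, Cdc6 and Slbp fall in every library, and Thy1 shows no common direction.

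Among 24 tested genes of mitotic entry, 15 were higher and 3 lower, with a median log2 fold change of 0.82. Cdk1 itself was found from 36.7 to 166 CPM in low cells with a median of 92.0, and from 136 to 571 CPM in mitotic cells with a median of 299 (log2 fold change 1.73, SE 0.06, adjusted p = 4.6e-17). It rose in 7 of 7 libraries, yet the groups overlapped, since its level varied between libraries. Ccna2, cyclin A2, ranged from 52.3 to 70.9 CPM in low cells with a median of 59.7, and from 113 to 191 CPM in mitotic cells with a median of 144 (log2 fold change 1.27, SE 0.06, adjusted p = 1.6e-14), with no overlap. The phosphatase Cdc25b rose by 2.07 and Ccnf, cyclin F, by 1.79 on the log2 scale. Ccnb2, cyclin B2, rose by 1.00, and Foxm1, the transcription factor of many G2 genes, by 0.94. The 3 lower members were Arpp19, a small inhibitor of the phosphatase PP2A (-0.18), Mybl2 and Cdc25a. Mybl2, a MYB factor of late G1 and S phase, had a log2 fold change of -0.65 and Cdc25a, the CDC25 member that acts at the G1 to S transition, -0.54, each lower in 7 of 7 libraries.

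Of 24 tested kinesins and spindle proteins, 23 were higher and 0 lower, with a median log2 fold change of 1.55, and 22 rose by at least 1.5-fold. Tpx2 was measured from 34.7 to 70.6 CPM in low cells with a median of 54.3, and from 125 to 323 CPM in mitotic cells with a median of 263, and Kif2c from 6.94 to 22.9 CPM in low cells with a median of 15.3, and from 35.5 to 104 CPM in mitotic cells with a median of 67.6. Neither gene overlapped between the groups. In tubulins and centrosome proteins, 15 of 25 were higher and 1 lower, with a median of 0.35. The tubulin isotypes differed: Tuba1c rose by 1.63 (SE 0.07) and Tubb4b by 1.07 (SE 0.06), whereas Tubb5 rose by 0.51 (SE 0.05) and Tuba1b by 0.23 (SE 0.06) on the log2 scale. Near-identical tubulin copies can share reads, so the split between isotypes is uncertain. Against the middle cells in place of the low cells, Tubb5 differed by -0.00.

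Checkpoint and chromosomal passenger genes were higher in 14 of 18 tested cases and lower in 0, with a median log2 fold change of 1.10. Bub1b, the checkpoint kinase BubR1, ranged from 11.1 to 43.8 CPM in low cells with a median of 35.4, and from 26.4 to 147 CPM in mitotic cells with a median of 106 (log2 fold change 1.62, SE 0.06, adjusted p = 8.8e-16). Both 5′ v1 libraries were the lowest in each group, so the groups overlapped while all 7 libraries rose. The shugoshin Sgol2a rose by 1.58, the kinetochore scaffold Casc5 by 1.34, and the passenger subunits Cdca8 by 1.29 and Birc5 by 1.13. Their kinase, Aurkb, rose by 1.16. Mad2l1, which binds and blocks the APC/C activator, rose by 0.47 (SE 0.08, adjusted p = 8.9e-05).

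In the kinetochore and centromere list, 19 of 28 tested genes were higher and 3 lower, with a median log2 fold change of 0.67. Cenpa, the histone H3 variant of centromeres, ranged from 74.9 to 113 CPM in low cells with a median of 109.9, and from 250.0 to 483 CPM in mitotic cells with a median of 388 (log2 fold change 1.86, SE 0.07, adjusted p = 2.3e-16). Every mitotic library was above every low library. At 10000 UMIs, 88.1% to 98.2% of mitotic cells carried a Cenpa UMI, against 44.9% to 55.6% of low cells and at most 22.5% of human cells of a library. Cenpl rose by 1.54 and Ndc80, the microtubule-binding subunit of the outer kinetochore, by 1.07 on the log2 scale.

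Of 20 tested genes of the APC/C and separase list, 13 were higher and 2 lower, and the median log2 fold change was only 0.25. Of the core subunits, Cdc27 (0.75) and Cdc23 (0.61) rose most and Cdc26 was lower (-0.14). Fzr1, the activator that takes over from Cdc20 at the end of mitosis, ranged from 19.1 to 27.8 CPM in low cells with a median of 24.3, and from 60.7 to 95.9 CPM in mitotic cells with a median of 74.6 (log2 fold change 1.73, SE 0.07, adjusted p = 9.4e-16), with no overlap. Espl1, separase, rose by 1.12 and Pttg1, securin, by 1.18. Fbxo5, which inhibits APC/C in S and G2 phase, had a log2 fold change of -0.44 (SE 0.08, adjusted p = 2.0e-04) and was lower in 7 of 7 libraries, but against the middle cells its value was 0.10.

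In the cytokinesis list, 10 of 16 tested genes were higher and 0 lower, with a median of 1.10. Its largest changes were those of Prr11 and Arhgef39, given above, and Arl6ip1, so the count is not one of the division machinery alone. Arl6ip1, a protein that shapes the endoplasmic reticulum, ranged from 149 to 291 CPM in low cells with a median of 226, and from 556 to 1090.3 CPM in mitotic cells with a median of 788 (log2 fold change 1.87, SE 0.05, adjusted p = 1.9e-18). Ect2, which acts at the cleavage site, rose by 1.69 and its partner Racgap1 by 1.32, both in all 7 libraries and without overlap. The 6 members that did not pass, Rhoa, Sept9, Myh9, Myl12a, Myl12b and Cd2ap, had values between -0.08 and 0.14.

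Among condensins, cohesins and other chromosome proteins, 15 of 24 were higher and 3 lower, with a median of 0.20. Top2a, the topoisomerase that untangles sister chromatids, ranged from 239 to 389.8 CPM in low cells with a median of 352, and from 383 to 1091 CPM in mitotic cells with a median of 960.4 (log2 fold change 1.22, SE 0.09, adjusted p = 7.5e-11). Mki67, which coats mitotic chromosomes, rose by 1.10, the condensin subunits Ncaph by 1.22 and Smc4 by 0.96, and the chromatin protein Hmgb2 by 0.49. In the nuclear envelope and pore list 11 of 26 were higher and 2 lower, with a median of 0.13. Kpna2 stood far from the rest there, and the lamin B receptor Lbr (0.47) and lamin B1, Lmnb1 (0.46), rose less.

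**Figure D3:**
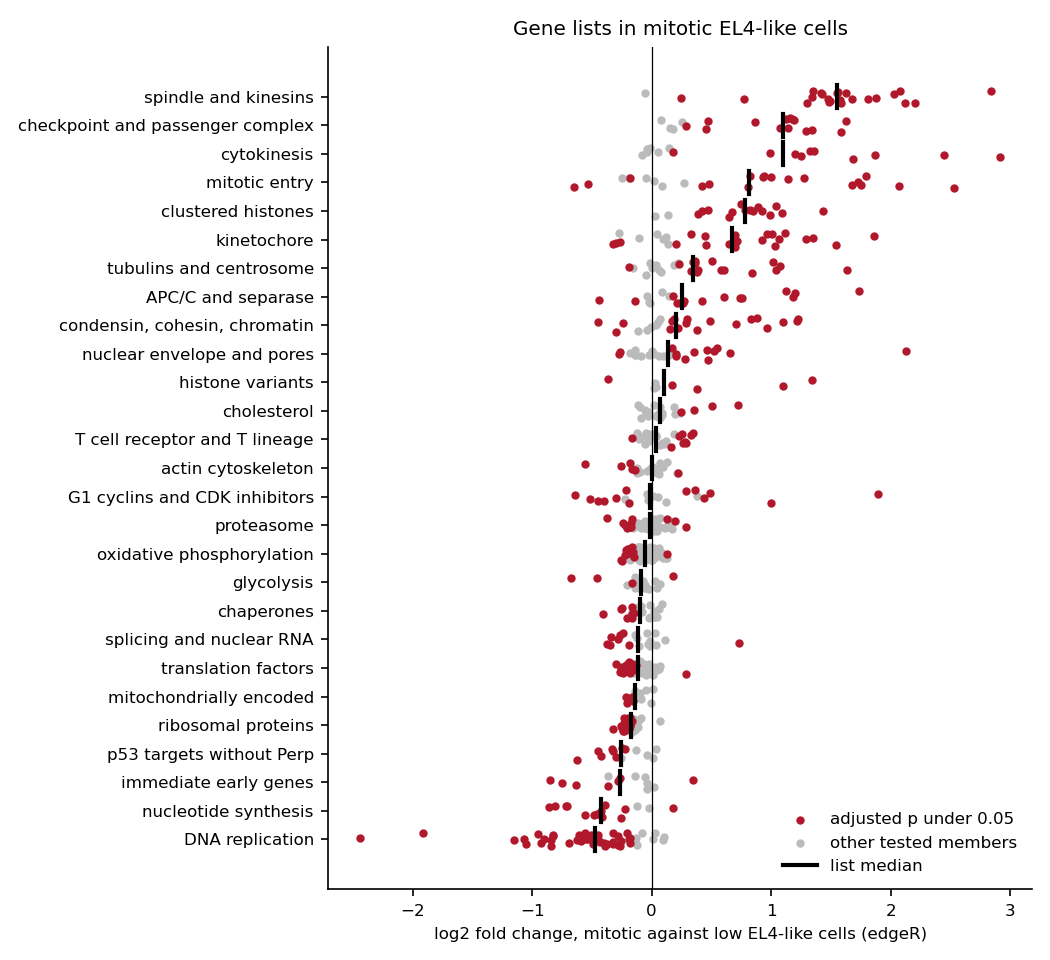
Log2 fold change of mitotic against low EL4-like cells for each tested member of 27 gene lists, with the list median as a black bar; red points passed an adjusted p of 0.05 and grey points did not. The spindle list has the highest median, 1.55, and the DNA replication list the lowest, -0.47.

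Replication-dependent histone genes lie in clusters and are made in S phase, and most of their transcripts end in a stem-loop without a poly(A) tail, so kits that prime on poly(A) count only part of them. Of 69 clustered histone genes in the reference, 17 were tested, and 15 of these were higher and 0 lower in mitotic cells, with a median log2 fold change of 0.78. Hist1h4d was found from 2.79 to 22.6 CPM in low cells with a median of 4.64, and from 3.07 to 62.3 CPM in mitotic cells with a median of 15.5 (log2 fold change 1.43, SE 0.12, adjusted p = 1.5e-09), and Hist2h2ac rose by 1.09. The Hist1h4d change was 1.51 in the 3′ v3 and 0.16 in the 5′ v1 libraries (difference 1.36, SE 0.36, adjusted p = 0.0086), where it was scarce, and the library value of 5′ v1 replicate 1 was -0.10. Levels of this family depended on the library far more than on the score group: Hist1h2ap ranged from 2.67 to 3678 CPM in low cells with a median of 411, and from 5.01 to 4168 CPM in mitotic cells with a median of 451 (log2 fold change 0.42, SE 0.08, adjusted p = 3.2e-04). Near-identical histone copies share reads, so single members are uncertain. Without the library block, 0 of the 17 passed.

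Of 8 tested histone variants, 4 were higher, 1 lower and 3 did not pass. H2afx, the variant that is phosphorylated at DNA breaks, ranged from 35.6 to 114 CPM in low cells with a median of 44.4, and from 84.0 to 305 CPM in mitotic cells with a median of 114 (log2 fold change 1.35, SE 0.05, adjusted p = 1.1e-15). Both 5′ v1 libraries were far above the other libraries in low and in mitotic cells. H1f0, a linker histone, rose by 1.10. H2afz, the most abundant variant here, had 3458 CPM in the median mitotic and 3114 CPM in the median low library (log2 fold change 0.03, SE 0.06, adjusted p = 0.78).

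Of the tested genes lower in all 7 libraries, Ung and Cdc6 fell most. Ccne2 was too scarce to be tested, with 19 UMIs in all mitotic and 609 in all low cells, whose sums were larger. Ung, which removes uracil from DNA, ranged from 60.5 to 86.3 CPM in low cells with a median of 67.4, and from 9.13 to 26.2 CPM in mitotic cells with a median of 11.8 (log2 fold change -2.44, SE 0.10, adjusted p = 2.6e-15). Cdc6, which loads the replicative helicase at origins, ranged from 15.6 to 46.8 CPM in low cells with a median of 46.0, and from 2.91 to 14.4 CPM in mitotic cells with a median of 7.37 (log2 fold change -1.92, SE 0.11, adjusted p = 1.2e-12). The groups did not overlap for either gene. At 10000 UMIs a Ung UMI was present in 4.92% to 14.3% of mitotic and 33.9% to 50.8% of low cells, and in at most 3.41% of human cells.

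Of 50 tested replication genes, 42 were lower and 0 higher, with a median log2 fold change of -0.47, and 16 fell by at least 1.5-fold. Chaf1b, a chaperone subunit that places histones on new DNA, had a log2 fold change of -1.16, and the factors E2f1 and E2f7 had -1.07 and -1.06. E2f7 was at 0 in the 42 mitotic cells of the 3′ v2 library. Slbp, which binds the stem-loop of histone transcripts, ranged from 114 to 328 CPM in low cells with a median of 203, and from 57.8 to 204 CPM in mitotic cells with a median of 101.5 (log2 fold change -0.95, SE 0.05, adjusted p = 2.0e-12). Ccne1, the cyclin of the G1 to S transition, had a log2 fold change of -0.90 and Uhrf1, which copies DNA methylation, -0.85.

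The helicase genes fell less: Mcm3 had -0.59 and Mcm6 -0.57 (SE 0.05 and 0.05), and Pcna, the sliding clamp, -0.49 (SE 0.10) on the log2 scale. Gmnn, which blocks a second round of licensing in S and G2 phase, had -0.21 (SE 0.06, adjusted p = 0.0056). Each of these was lower in 7 of 7 libraries. Outside the list, Dna2, a nuclease and helicase, had a log2 fold change of -1.22 and Wdr76 -1.12. The other genes of the 12 with the largest fall in every library were Mxd4, a partner of MAX (-1.44), Ctla2b (-1.25), the p53-induced adaptor Pidd1 (-1.23), the F-box gene Fbxl20 (-1.14) and Zmynd19 (-1.06). Mxd4, Ctla2b, Pidd1 and Fbxl20 were scarce, with medians of 6.10 to 10.6 CPM in low cells, and their groups overlapped. Mxd4, Fbxl20 and E2f7, at a mean under 5 CPM in mitotic cells, passed the limit for testing through their level in low cells. Ctla2b was at a mean of 1.74 CPM in mitotic and 5.43 CPM in low cells with 3′ v3. The library value of 3′ v2 was only -0.0076 for Mxd4 and -0.095 for Ctla2b on the log2 scale.

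Against the middle cells, 228 of 8651 genes were higher and 113 lower. The spindle median was then 0.52 and the replication median -0.09, with 5 of 49 replication genes lower and 1 higher. Other lists lost calls as well. Of the mitotic lists, 11 genes of the kinetochore, 6 of the tubulin and centrosome, 5 of the APC/C and separase and 3 of the nuclear envelope list were higher there. Ung had a median of 23.7 CPM over libraries in the middle cells, between 67.4 in low and 11.8 in mitotic cells. Slbp had 125 CPM there, against 203 in low and 101.5 in mitotic cells, and Nusap1 had 90.7 against 153.

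Genes of deoxynucleotide supply were lower in 12 of 15 tested cases and higher in 1, with a median of -0.42. The count was 2 lower and 1 higher against the middle cells, with a median of -0.07. The regulated subunit of ribonucleotide reductase, Rrm2, ranged from 123 to 387 CPM in low cells with a median of 213, and from 55.1 to 261 CPM in mitotic cells with a median of 119 (log2 fold change -0.86, SE 0.07, adjusted p = 2.9e-10). Dck, which phosphorylates deoxycytidine, had a log2 fold change of -0.81. The large subunit Rrm1 was the member that passed in the other direction, at 0.18 (SE 0.06, adjusted p = 0.034), higher in 5 and lower in 2 of 7 libraries, the 2 being those of the 5′ v1 kit.

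G1 cyclins and CDK inhibitors did not move as a group: 6 of 20 were higher, 7 lower and 7 did not pass, with a median of -0.01. Cdkn3, a phosphatase of CDKs, ranged from 3.67 to 8.29 CPM in low cells with a median of 6.05, and from 7.77 to 29.6 CPM in mitotic cells with a median of 24.6 (log2 fold change 1.90, SE 0.14, adjusted p = 1.3e-10). Cdkn2d, an INK4 inhibitor, rose by 1.00 and Cdkn1b, p27, by 0.36. Cdk2 had a log2 fold change of -0.64, Ccnd1, cyclin D1, -0.52 and Ccnd3, the D cyclin most used in T cells, -0.40, all lower in 7 of 7 libraries.

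Perp, a p53 target, helped to choose the EL4-like cells and was left out. Of the 13 other p53 list genes tested 8 were lower and 0 higher, with a median of -0.25. The number depended on the cells and the scaling: 3 were lower at 20000 to 40000 UMIs, where the median was -0.13, 3 with library size alone and 3 at a mitochondrial share under 5%, and 4 with thinned cells and 4 in the highest 5%, where the median was -0.12. Of all genes, 1512 of 8612, 709 of 8609, 400 of 8541, 919 of 8713 and 1252 of 8602 were lower in these settings, in the same order. Cdkn1a, p21, which stops CDKs after damage, ranged from 31.4 to 82.1 CPM in low cells with a median of 44.3, and from 15.7 to 103 CPM in mitotic cells with a median of 26.2 (log2 fold change -0.45, SE 0.12, adjusted p = 0.0060), and was lower in 6 libraries and higher in 1. Aen, a nuclease, had -0.43, Trp53inp1 -0.62 and Trp53 itself -0.22 as log2 fold changes. Trp53inp1 was lower in 5 and higher in 2 libraries. Against the middle cells, Cdkn1a was at 0.13 and none of the 13 passed, at a median of -0.07.

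Immediate early genes were lower in 6 of 13 tested cases and higher in 1, with a median of -0.27. At 20000 to 40000 UMIs 4 were lower with a median of -0.13, at a mitochondrial share under 5% 3 were lower, and against the middle cells 1 was, with a median of -0.12. Of all genes, 1512 of 8612, 400 of 8541 and 113 of 8651 were lower in these settings, in the same order. Junb ranged from 16.3 to 46.4 CPM in low cells with a median of 40.6, and from 10.7 to 29.6 CPM in mitotic cells with a median of 23.6 (log2 fold change -0.64, SE 0.07, adjusted p = 5.6e-07), and Nr4a1, induced by T cell receptor signals, had a log2 fold change of -0.75. Egr1 had -0.85, but its level spanned 0 to 62.1 CPM between the mitotic cells of the libraries and it was lower in 5 and higher in 2 of them. Klf6 was the member that was higher, at 0.35, and against the middle cells it was at -0.07.

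T lineage genes showed small differences. Of 27 tested, 8 were higher and 1 lower, none by 1.5-fold, with a median of 0.04. Only 1 was higher and 0 lower against the middle cells, and in the 3′ v3 libraries alone 11 were higher and 6 lower. Of all genes, 228 of 8651 were higher and 113 lower against the middle cells. In the 3′ v3 libraries alone, 1673 of 8567 were higher and 1938 lower. Thy1 ranged from 429 to 889 CPM in low cells with a median of 688, and from 422 to 937 CPM in mitotic cells with a median of 668 (log2 fold change -0.02, SE 0.05, adjusted p = 0.80), so the groups overlapped almost fully. Cd3e had -0.06 (SE 0.05, adjusted p = 0.40) and Lck 0.10 (SE 0.05, adjusted p = 0.13). The adaptor Lcp2 rose by 0.35, the transcription factor Bcl11b by 0.33 and the receptor chain Cd247 by 0.28, and Runx3 was the member that was lower, at -0.16.

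Among housekeeping lists, ribosomal protein genes stood out for a small change in 1 direction: 42 of 83 were lower and 0 higher, with a median of -0.18, and none reached 1.5-fold. Rps26 had the largest, from 1542 to 7407 CPM in low cells with a median of 3691, and from 1260.5 to 7271 CPM in mitotic cells with a median of 2730.0 (log2 fold change -0.32, SE 0.06, adjusted p = 5.5e-04). Scaled by library size alone, 38 of the 83 were lower at a median of -0.09. Against the middle cells 0 of 83 passed, at a median of -0.13, and with sums per mixture 0, at -0.17, while 7 were lower at a mitochondrial share under 5%. With 1 library left out the number was 20 without 3′ v3 replicate 1, 22 without 5′ v1 replicate 2 and 73 without 3′ v2 replicate 2, and 33 to 40 without any of the others, and it was 68 in the 3′ v3 libraries alone. Translation factors were lower in 15 of 39 cases and higher in 1, Eif4e, the cap-binding protein (0.28), and the lowest was Eif3j1 (-0.30). Mitochondrially encoded genes were lower in 5 of 13 cases, the largest being mt-Atp8 (-0.21), and nuclear genes of oxidative phosphorylation in 11 of 76 with 1 higher. By library size alone the mitochondrially encoded genes were 1 higher and 1 lower and those of oxidative phosphorylation 7 higher and 5 lower, and the median of the latter turned to 0.03.

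Chaperone genes were lower in 8 of 25 cases and higher in 0, with Hspa8, the constitutive HSP70, the largest at -0.41 (SE 0.07). Of 18 glycolysis and lactate transport genes 3 were lower and 1 higher. The largest were the lactate transporters Slc16a3 (-0.67) and Slc16a1 (-0.46). Of 21 cholesterol genes 4 were higher and 0 lower, among them mevalonate kinase, Mvk (0.73) and Msmo1 (0.36). Proteasome genes were higher in 3 and lower in 8 of 46 cases, and by library size alone higher in 7 and lower in 1. Actin and its binding proteins were higher in 1 and lower in 5 of 22, with Tmsb4x, thymosin beta 4, at -0.55 (SE 0.07). Of all tested genes 16.4% were higher and 17.5% lower, and the lower members of the oxidative phosphorylation, glycolysis, proteasome and actin lists and the higher members of the cholesterol list were close to these shares in number. Several of these counts depended on the libraries and the scaling. In the 3′ v3 libraries alone, 21 genes of oxidative phosphorylation, 17 of the proteasome, 15 chaperones, 10 of glycolysis and 10 of actin were lower, beside 1938 of all 8567 genes tested there. Glycolysis genes were lower in 7 cases with relative log expression size factors, 6 with DESeq2 and 8 without the 3′ v2 library, and those of oxidative phosphorylation in 32 without that library. Of all genes, 1630 of 8609, 1323 of 8609 and 1754 of 8645 were lower in these settings, in the same order. Against the middle cells 0 genes of the oxidative phosphorylation, proteasome and mitochondrially encoded lists were lower, 0 of the cholesterol list higher and 1 chaperone gene lower. With sums per mixture the lower genes were 6 translation factors, 3 of oxidative phosphorylation, 1 chaperone and 0 mitochondrially encoded, beside 958 of all 8567 genes tested there.

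In the list of nuclear RNAs and splicing factors 7 of 18 were lower and 1 higher, and against the middle cells 0 were lower and 1 higher. The exception was Malat1, a long noncoding RNA of nuclear speckles, from 983 to 3473 CPM in low cells with a median of 2312, and from 1733 to 5232 CPM in mitotic cells with a median of 4378 (log2 fold change 0.73, SE 0.07, adjusted p = 1.2e-08), higher in 7 of 7 libraries. Neat1, the RNA of paraspeckles, went the other way with a log2 fold change of -0.35 (SE 0.06, adjusted p = 6.5e-05), as did the splicing factor Srsf2, at -0.37.

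Whole-cell measures, 5 in all, were compared, 1 difference of medians per library, with an exact sign-flip permutation test over 7 libraries (two-sided, smallest possible p 0.0156, adjusted over 5 measures). Total UMIs were compared with groups taken from thinned cells, so that the score had equal depth in all cells, and the median mitotic cell then held 2229 to 10239 more UMIs than the median low cell of its library. The mean of library medians was 32366 in mitotic and 25682 in low cells, higher in 7 of 7 libraries (exact test, adjusted p = 0.039). In the groups used for all other results, the median mitotic cell held 251 to 9411 more UMIs than the median low cell, the 251 being that of 5′ v1 replicate 1. A level in CPM is a share of the transcripts of a cell. The share of ribosomal protein UMIs was lower in 7 of 7 libraries, by 0.31 to 5.47 percentage points (mean 30.8% against 32.5%, exact test, adjusted p = 0.039). In the same exact test the adjusted p was 0.0625 thinned, in the highest 5%, at 20000 to 40000 UMIs and against the middle cells. Total UMIs were not among the measures adjusted for there. With 1 library left out the adjusted p was 0.052 to 0.078. Before adjustment the exact p was 0.03125 each time, the smallest possible with 6 libraries, so whether it passed depended on the other measures. The share passed with a score from 4 genes and over 95% mouse.

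At 10000 UMIs, mitotic cells showed from 9 fewer to 320 more genes than low cells, with more genes in 6 of 7 libraries (mean difference 111 ± 119, SD, exact test, adjusted p = 0.052). The mitochondrial share differed by -0.27 to 0.08 percentage points and the share of human UMIs by -0.04 to 0.01 percentage points, neither in a common direction (exact test, adjusted p = 0.21 and 0.22). Of the mitotic cells, 7 (0.88%) held over 2 times the median UMIs of EL4-like cells in their library, against 13 of 3967 low cells (0.33%) and 54 of 3176 middle cells (1.70%).

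To see what was shared with the other mouse line, the same score and groups were taken in 2751 IVA12-like cells of the same libraries, which gave 275 mitotic cells, only 3 of them in the 3′ v2 library. The groups were less far apart in relative score: the median score of mitotic cells was 6.74 to 13.3 times that of low cells in EL4-like and 3.75 to 7.50 times in IVA12-like cells, lower in the second line in 7 of 7 libraries. The difference in score was smaller in IVA12-like cells in the 4 3′ v3 libraries, and its part in the differences between lines was not tested. Of 8977 genes tested for a difference in change, 379 (4.22%) moved more upward in EL4-like cells and 239 (2.66%) more downward. Without the 3′ v2 library the counts were 243 and 426, and without the block 0 and 0. More genes were also downward than upward with relative log expression size factors (289 upward and 325 downward), with DESeq2 (208 and 252), in cells of 20000 to 40000 UMIs (172 and 279), with sums per mixture (95 and 175) and in the 3′ v3 libraries alone (343 and 641). The same held without 3′ v3 replicate 2 (168 and 300), replicate 3 (84 and 164) or replicate 4 (145 and 291) and without 5′ v1 replicate 2 (203 and 423). The balance between the directions is therefore not read as a result.

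The median change of the spindle genes was 1.53 in EL4-like and 1.21 in IVA12-like cells, with 12 of 24 moving more upward in EL4-like cells and 0 more downward. Prr11 changed by 2.90 in EL4-like and 1.59 in IVA12-like cells (difference 1.31, SE 0.16, adjusted p = 1.6e-07). Its low cells differed between the lines, with a mean of 3.89 CPM for EL4-like and 11.7 CPM for IVA12-like cells. Nusap1 changed by 2.82 in EL4-like and 1.94 in IVA12-like cells (difference 0.88, SE 0.14, adjusted p = 3.1e-05) and Cenpa by 1.84 in EL4-like and 1.07 in IVA12-like cells (difference 0.77, SE 0.10, adjusted p = 3.7e-07). Replication genes had medians of -0.49 and -0.76, with 15 of 50 moving more upward in EL4-like cells and 2 more downward.

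The lines differed in clustered histones, whose median change was 0.74 in EL4-like and -0.30 in IVA12-like cells over 16 tested genes, 13 of which passed the test of the difference, all in 1 direction, and 11 did so without the 3′ v2 library. Hist1h1c, a linker histone, changed by 0.83 in EL4-like and -1.24 in IVA12-like cells (difference 2.06, SE 0.14, adjusted p = 2.5e-14), from 13.7 to 24.9 CPM in the first line and from 123 to 52.8 CPM in the second, as means of libraries. The library values of the lines did not overlap for Hist1h1c or Hist1h4i. Within EL4-like cells, the Hist1h4i change was 0.81 in the 5′ v1 mixture and 0.01 and 0.14 in the 3′ v3 mixtures. Over all libraries it was 0.37 in EL4-like and -1.84 in IVA12-like cells (difference 2.21, SE 0.16, adjusted p = 4.9e-14). Hist1h4d had 1.41 in EL4-like and 0.70 in IVA12-like cells (difference 0.72, SE 0.20, adjusted p = 0.019). In the median of all 8426 genes tested in both fits, the changes were -0.02 and -0.07.

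Of the 13 p53 list genes other than Perp, 6 moved more downward in EL4-like cells and 0 more upward, with medians of -0.27 and 0.22. Cdkn1a changed by -0.46 in EL4-like and 1.44 in IVA12-like cells (difference -1.90, SE 0.21, adjusted p = 1.8e-08), that is from 53.4 to 42.7 CPM and from 25.3 to 68.4 CPM. Aen changed by -0.45 in EL4-like and 0.51 in IVA12-like cells (difference -0.95, SE 0.10, adjusted p = 2.1e-08), and Ccnd1 by -0.54 in EL4-like and 0.21 in IVA12-like cells (difference -0.75, SE 0.14, adjusted p = 2.7e-04). Of the 6 genes with the largest difference in the downward direction, the other 5, 2610305D13Rik, Mllt4, C2cd4a, Cbfa2t3 and Dnajb14, held at most 2.59 CPM in EL4-like cells, so their ratios there rest on few UMIs. In the upward direction, the 6 with the largest difference were Hist1h4i, Hist1h1c, Frat2, Hist1h2bc, Smtn and Heg1. Frat2, a GSK3-binding protein, and Heg1 held at most 2.16 CPM in IVA12-like cells, and Hist1h2bc and Smtn at most 2.999 CPM in EL4-like cells, as means of libraries, so these ratios too rest on few UMIs.

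**Figure D4:**
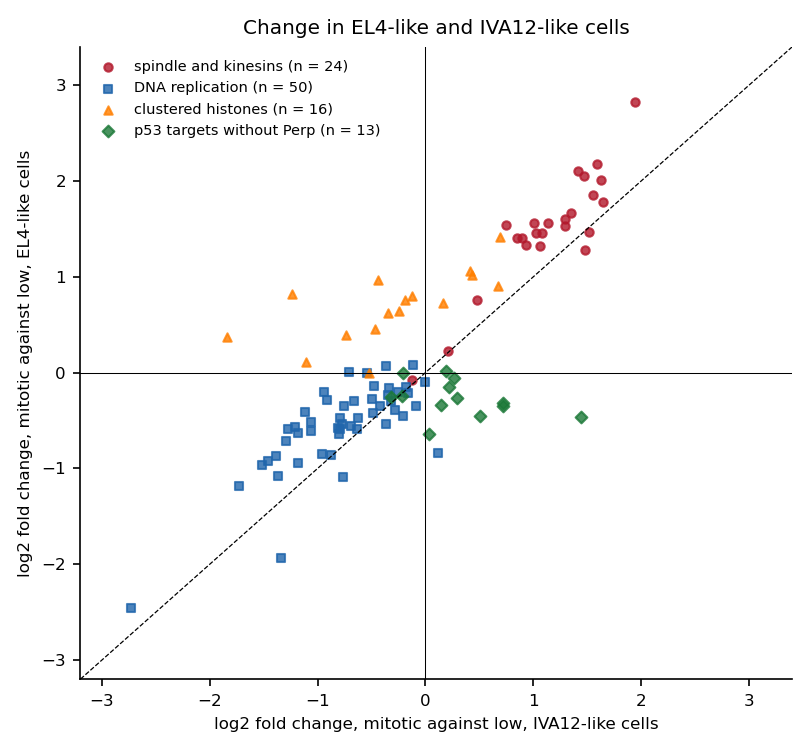
Log2 fold change of mitotic against low cells in IVA12-like cells (horizontal) and EL4-like cells (vertical) for genes of 4 lists, with the line of equal change dashed. Spindle genes lie at the upper right, replication genes at the lower left, clustered histones at or above 0 in EL4-like cells with 11 of 16 below 0 in IVA12-like cells, and Cdkn1a is the p53 target farthest to the right.

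Between kits, the changes of the 4 3′ v3 and the 2 5′ v1 libraries were compared in EL4-like cells. The 5′ v1 libraries came from a single mixture of cells, so kit and mixture cannot be told apart. The score groups were also not equally far apart. With 5′ v1 the median mitotic score was 12.3 and 13.3 times the low one, and with 3′ v3 6.74 to 8.79 times. The difference in score was larger with 3′ v3, at 19.7 to 25.2 against 12.4 and 14.5. The part of this in the differences between kits was not tested. Of 8645 genes tested, 462 (5.34%) moved more upward with 3′ v3 and 554 (6.41%) more downward. Without 5′ v1 replicate 1 the counts were 181 and 208, without the block 0 and 0, and with scaling by library size alone 163 and 1582. More genes were upward than downward with DESeq2 (325 and 218), with relative log expression size factors (549 and 464) and without 3′ v3 replicate 2 (551 and 416) or replicate 4 (585 and 409).

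The spindle list had a median change of 1.53 with 3′ v3 and 1.48 with 5′ v1, and 4 of its 24 members moved more upward with 3′ v3. Nusap1, a member of this list, and mitotic genes outside it differed between the kits. Pttg1 changed by 0.87 in the 3′ v3 and 2.11 in the 5′ v1 libraries (difference -1.24, SE 0.14, adjusted p = 5.0e-08), and Ccnb2 by 0.79 in the 3′ v3 and 1.54 in the 5′ v1 libraries (difference -0.75, SE 0.12, adjusted p = 1.9e-05). Nusap1 changed by 3.03 in the 3′ v3 and 2.12 in the 5′ v1 libraries (difference 0.91, SE 0.11, adjusted p = 9.0e-08), and Top2a by 1.44 in the 3′ v3 and 0.72 in the 5′ v1 libraries (difference 0.72, SE 0.07, adjusted p = 4.0e-09). The ranges of the libraries of each kit did not overlap for these 4 genes.

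Ribosomal protein genes had a median of -0.12 with 3′ v3 and -0.43 with 5′ v1, and 79 of 83 passed the test of the difference in 1 direction, 49 without 5′ v1 replicate 1 and 41 by library size alone. The share of ribosomal protein UMIs moved with this: it was lower in mitotic cells by 5.47 and 2.47 percentage points in the 5′ v1 libraries and by 0.61 to 1.22 in the 3′ v3 libraries. Of 50 replication genes, 7 moved more downward with 5′ v1 and 0 with 3′ v3. Pcna changed by -0.29 in the 3′ v3 and -1.26 in the 5′ v1 libraries (difference 0.97, SE 0.13, adjusted p = 8.8e-07), and Ccne1 by -0.73 in the 3′ v3 and -1.69 in the 5′ v1 libraries (difference 0.95, SE 0.12, adjusted p = 3.7e-07). The gene 2810417H13Rik changed by 0.02 in the 3′ v3 and -1.44 in the 5′ v1 libraries (difference 1.46, SE 0.08, adjusted p = 1.9e-16).

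Among chaperones, 2 of 25 moved more upward with 3′ v3 and 9 more downward. Hspa5, the chaperone BiP of the endoplasmic reticulum, changed by -0.57 in the 3′ v3 and 0.75 in the 5′ v1 libraries (difference -1.32, SE 0.09, adjusted p = 1.0e-13), with a mean level of 449 CPM in low and 302 in mitotic cells with 3′ v3 and of 94.9 and 158 CPM with 5′ v1. Over all 7 libraries Hspa5 did not pass (log2 fold change -0.17, SE 0.12, adjusted p = 0.32). Cdkn1a changed by -0.80 in the 3′ v3 and 0.09 in the 5′ v1 libraries (difference -0.89, SE 0.14, adjusted p = 3.8e-05), and by -0.88 in the 3′ v2 library. Mxd3, a MAX partner expressed in dividing cells, changed by 1.61 in the 3′ v3 and 0.03 in the 5′ v1 libraries (difference 1.58, SE 0.19, adjusted p = 1.4e-07), and Cox6a2 by -1.25 in the 3′ v3 and 0.30 in the 5′ v1 libraries (difference -1.55, SE 0.14, adjusted p = 2.2e-10).

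**Figure D5:**
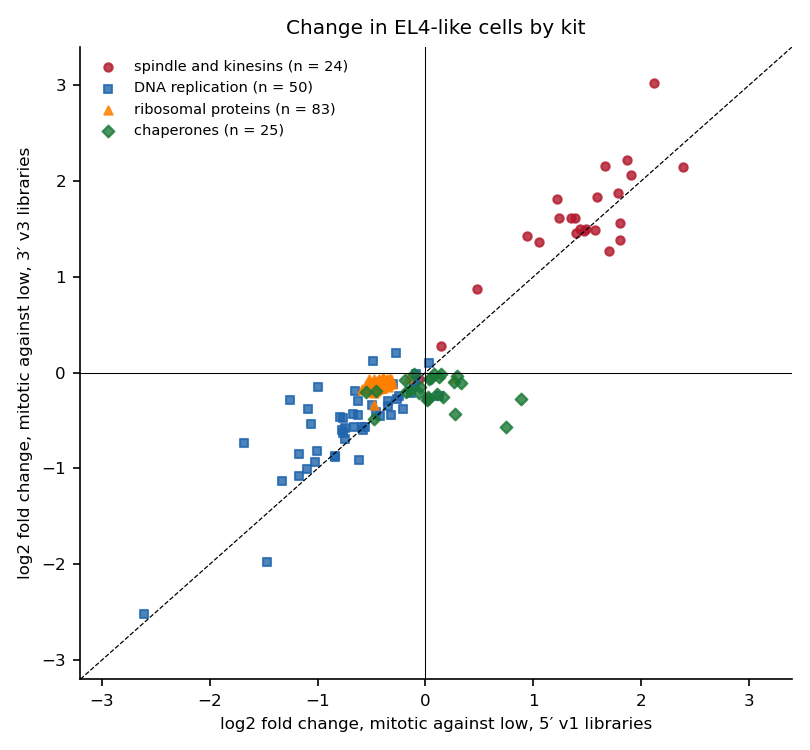
Log2 fold change of mitotic against low EL4-like cells in the 5′ v1 libraries (horizontal) and the 3′ v3 libraries (vertical) for genes of 4 lists, with the line of equal change dashed. Spindle genes lie at the upper right on both sides of the line, ribosomal protein genes sit left of 0 and closer to 0 with 3′ v3, and the chaperone Hspa5 has opposite signs, -0.57 with 3′ v3 and 0.75 with 5′ v1.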

How the data were processed

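Mouse and human cells were profiled as a mixture on the Chromium system, and 7 of the 8 libraries named in the labels were used; the first 3′ v2 library was not analysed here. The deposited values are UMI counts per gene and barcode, which the authors made with Cell Ranger 3.0.2 against the joint human and mouse reference of the 10x release numbered 1.2.0 (hg19 and mm10), and they are whole counts that were not scaled. The study's methods reduce the reads at random to a common depth per cell before Cell Ranger, and the sources used here do not say whether the deposited matrices come from reduced reads; if so, depth was made more alike between libraries before counting. PCR copies are collapsed by UMI, and intervals and p-values cover libraries, not cultures.

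Barcodes, lines and score groups were taken as the report states. No doublet caller was run: the limit on human UMIs and the ratio of 5 leave out some doublets of mouse with human and of EL4 with IVA12 cells, and doublets of EL4 cells with each other were not addressed. Of the EL4-like barcodes, 5 occurred in more than 1 library, 0 of them mitotic. UMIs were summed per library and group and tested with edgeR 4.0.16 (R 4.3.3, quasi-likelihood, TMM, library as block, Benjamini-Hochberg adjustment). Genes needed a fitted average log CPM, as edgeR computes it, of at least that of 5 CPM. DESeq2 1.42.0 was used as an alternative, and adjusted p-values in the report are from edgeR. Low and mitotic sums come from the same library, which is what pairs them. Interaction terms compared lines and kits. CPM in the tests and levels used mouse UMIs scaled by TMM, except in the check of the mouse line, where the levels were not scaled by TMM. Middle-cell levels used factors from the low, middle and mitotic sums together, and the low and mitotic levels beside them factors without the middle sums. Library log2 values used a pseudocount of 1 CPM. Whole-cell measures used exact tests coded directly with numpy 2.4.6 in Python 3.11.15. Thinned values left out cells under 10000 mouse UMIs, 1 cell in each of 4 libraries. Of these steps, only the edgeR fits were tested on simulated sums with known changes. Those sums differed between libraries in depth alone, so the effect of the library block was not tested.

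Genes were named by rule: the 12 largest rises and falls called in the same direction in all 7 libraries, up to 4 called members of each list, the defining members of each role, and up to 6 genes for each direction of an interaction. Members and lists were chosen with earlier results of these data known. Some genes that meet the rule are not reported here.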

Additional observations from a re-analysis of the deposited data

Results flagged for a closer look

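Of 134 genes looked at, 6 had a 3′ v3 library whose log2 fold change stood apart from the other 3 by Dixon's criterion, which chance meets in about 1 of 20 groups, so the number is close to that given by chance. Prr11 was at 2.361 and Cdca8 at 1.264 in 3′ v3 replicate 4, both lower than in the other libraries of the kit. E2f7 was at -0.2673 in replicate 3 and Ncaph at 1.39 in replicate 3, both higher than in the others. Rps26 was at -0.3923 in replicate 1 and Tmsb4x at -1.156 in replicate 2, both lower than in the others.

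The change from low to mitotic cells differed between EL4-like and IVA12-like cells (edgeR interaction, adjusted p under 0.05) for 67 of 139 genes looked at. Of these, 12 were named for the size of this difference, and 55 of the other 127 met it, against 4.22% upward and 2.66% downward of all 8977 genes. The genes looked at were mostly named for their change in mitotic cells. Values are the log2 change in EL4-like cells minus that in IVA12-like cells. The positive differences were, in falling order, Hist1h4i 2.21, Hist1h1c 2.06, Frat2 1.71, Hist1h2bc 1.63, Smtn 1.55, Heg1 1.55, Prr11 1.31, Mxd3 1.14, Hist1h2ap 1.13, H1f0 0.959, Cdc25c 0.946 and Nusap1 0.879. Next came Cenpa 0.765, Hist1h4d 0.717, Mcm6 0.687, Tpx2 0.685, Mvk 0.664, Pttg1 0.654, Hist2h2ac 0.651, Arhgap19 0.646, Racgap1 0.618, Bub1b 0.617, Msmo1 0.612 and Ncaph 0.599. Then came Cdca3 0.597, Kif2c 0.591, Prc1 0.59, Cdkn3 0.581, Kpna2 0.577, Cdkn1b 0.57, Chaf1b 0.553, Pcna 0.552, Slbp 0.552, Casc5 0.551, Mki67 0.546 and Ccne1 0.544. After these came Uhrf1 0.523, Ndc80 0.483, Lbr 0.478, Tuba1c 0.466, Cdc27 0.462, H2afx 0.457, Cdc23 0.451, Mcm3 0.447, Tubb4b 0.43, Aspm 0.409, Top2a 0.385 and Cdca8 0.342. The smallest were Rrm1 0.309, Birc5 0.308 and Lmnb1 0.297. The negative differences were 2610305D13Rik -4, Mllt4 -2.79, C2cd4a -2.14, Cdkn1a -1.9, Cbfa2t3 -1.69, Dnajb14 -1.62, Arid3a -1.21, Mxd4 -1.03, Aen -0.954, Mzb1 -0.827, Ccnd1 -0.75 and Trp53inp1 -0.672. The rest were Cdc6 -0.604, Hspa8 -0.484, Zmynd19 -0.406 and Neat1 -0.36.

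It differed between the 3′ v3 and the 5′ v1 libraries for 44 of 134 genes, 32 of 122 without those named for it, against 5.34% and 6.41% of all 8645. Values are the log2 change with 3′ v3 minus that with 5′ v1. The positive differences were Gm11998 2.19, Mzb1 2.01, Fanci 1.78, Mxd3 1.58, 2810417H13Rik 1.46, Kif24 1.43, Hist1h4d 1.36, Pcna 0.971, Ccne1 0.954, Nusap1 0.906, Top2a 0.725 and Ect2 0.605. Lower ones were Prc1 0.496, Aurkb 0.49, H1f0 0.474, Rrm1 0.447, Rrm2 0.437, Mki67 0.421, Rpl37 0.402, Cdc27 0.39, Cdca3 0.378, Smc4 0.368, Tpx2 0.343 and Tuba1b 0.291. The lowest were mt-Atp8 0.272. The negative differences were Gm26737 -4.21, Il17f -2.39, Shb -1.68, Arid3a -1.57, Cox6a2 -1.55, Acot2 -1.35, Hspa5 -1.32, Pttg1 -1.24, Cdkn1a -0.895, Hist1h4i -0.799, Ccnb2 -0.751 and Mad2l1 -0.67. Nearer to 0 were Pif1 -0.652, Slc16a1 -0.524, Eif3j1 -0.389, Cenpa -0.33, Tmsb4x -0.322, Tubb4b -0.321 and Thy1 -0.199. With 5′ v1, Gm26737 was at 0.107 CPM in low and 1.21 CPM in mitotic cells, and Gm11998, Mzb1 and Fanci at 0.483 to 1.29 CPM in mitotic cells, so these ratios rest on few UMIs. Il17f rests on 5′ v1 replicate 1, and without it the difference was 1.869. Kit and cell mixture cannot be told apart in this comparison.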

How the results depend on the processing

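With the library as a block, 1410 genes were higher and 1504 lower in mitotic cells; with no replicate block, 124 were higher and 26 lower, all of them also called with it. In other settings the higher counts were 829 (cells thinned to 10000 UMIs), 228 (against the middle cells) and 466 (mitochondrial share under 5%), and the lower counts 919, 113 and 400 in the same settings, 958 with sums per mixture and 709 with library size alone. No gene called in both changed direction. Leaving out 1 library gave 1029 to 1423 higher and 1197 to 1754 lower. For the difference between the lines, 0 and 0 genes passed edgeR's test with no replicate block (192 had an unadjusted p under 0.05; 379 and 239 passed with it). More upward in EL4-like cells were 95 with sums per mixture, 208 with DESeq2, 140 thinned and 172 at 20000 to 40000 UMIs, and more downward 52 thinned and 641 in the 3′ v3 libraries alone. Leaving out 1 library gave 84 (without 3′ v3 replicate 3) to 353 upward and 131 to 426 downward (without 3′ v2 replicate 2). For the kits, 0 and 0 passed with no replicate block (285 unadjusted; 462 and 554 with it), 163 and 1582 with library size alone, and 218 downward with DESeq2, while leaving out 1 library gave 181 to 585 upward and 208 to 471 downward.

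Of 2458 values of the 112 named genes under other settings, 2269 kept direction and call, 185 lost the call and 4 changed sign. The settings that lost the most calls were no replicate block (68 of 112), the middle cells (44) and under 5% mitochondrial (21), and each other setting lost at most 7. The named genes were mostly chosen for large called changes, so their calls were more likely to be kept. Of all 2914 calls, 5.1% were kept with no replicate block, 10.7% against the middle cells and 29.3% under 5% mitochondrial. Thinned cells kept 55.0%, sums per mixture 65.4% and the other settings 72.6% to 97.2%. All 4 changes of sign were against the middle cells: Fbxo5 (0.0973), Tubb5 (-0.0038), Cdkn1a (0.131) and Klf6 (-0.0676). The Il17f kit difference was -4.285 to 1.869 with 1 library left out, the latter without 5′ v1 replicate 1.

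The ribosomal protein share (-1.73 points) was also lower in 7 of 7 libraries thinned (-1.57), in the highest 5% (-2.22) and against the middle cells (-1.45), where the exact p was still 0.0156, the smallest possible, and 0.0625 after adjustment. It was lower in 6 of 7 libraries at 20000 to 40000 UMIs (-1.30), in 5 of 6 under 5% mitochondrial (-2.36) and in 4 of 4 with 3′ v3 alone (-0.960; smallest possible exact p 0.125), and was -1.96 to -1.10 with 1 library left out. The UMI difference was 7479 with 3′ v3 alone and 6092 to 7427 with 1 library left out; with 6 libraries the smallest p this exact test can give is 0.031 before adjustment. Genes per cell passed with a score from 4 genes (121) and over 95% mouse (116). The mitochondrial share turned to 0.0415 at 20000 to 40000 UMIs and 0.0254 against the middle cells and passed with 4 genes (-0.140), and the human share turned to 0.0010 against the middle cells. The p53 list without Perp was chosen after seeing the data; its median was -0.2539, and -0.2495 with Perp. Shared promoter motifs were not run.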
